A study of Mus musculus with 12 samples.

Results

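The cytosolic ribosomal protein genes were examined in Ribo-seq libraries of mouse liver. They were taken by symbol: Rpl or Rps followed by a number and at most a short suffix, together with Rpsa, Rplp0, Rplp1 and Rplp2, without pseudogenes and without the S6 kinases. This gave 85 genes of the 25033 entries of the Ribo-seq table, 52 named for the large subunit and 33 for the small subunit. The livers came from C57BL/6 male mice that were 16 weeks old and had eaten a high-fat diet for 8 weeks from the age of 8 weeks. In the HFD group the diet was given alone, and in the LYC group it was given with lycopene, a carotenoid of tomato. For LYC the treatment label mentions the high-fat diet but not lycopene, which is known from the sample titles and the paper. There were 3 Ribo-seq libraries and 3 libraries labelled RNA-seq in each group. The labels give each library its own number but also speak of pooling RNA and footprints before library construction, so the p-values measure the spread between these libraries, which may be partly technical.

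A ribosome is built from ribosomal RNA and one copy each of most of these proteins, apart from the stalk proteins, which are present in several copies. The large subunit holds the peptidyl transferase centre and the exit tunnel, and the small subunit holds the channel that reads the mRNA. The mRNAs of the ribosomal proteins are short and abundant, and they start with a C followed by a stretch of pyrimidines, the terminal oligopyrimidine (TOP) motif. In growing or fed cells this motif lets mTOR complex 1 and the RNA-binding protein Larp1 raise or lower their translation as a group. Vertebrate genomes also carry very many processed pseudogenes of these mRNAs, so that a short read of a ribosomal protein gene often has several possible origins.

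The first transcribed bases of the members on which the results turn were read from the promoter table of RefSeq (GRCm38.p6), because the TOP motif is what these mRNAs are known to share. Of the 85 members, 64 were in that table. In each line the first 10 bases lie before the annotated start and the next 15 follow it, and capitals mark the unbroken run of C and T that covers the start, where there is one:
Rpl35: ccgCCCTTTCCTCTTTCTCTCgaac
Rpl38: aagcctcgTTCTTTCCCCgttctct
Rps6: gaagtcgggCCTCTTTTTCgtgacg
Rps10: gcgcacgCCCCTTCCTTTCCagcct
Rpl15: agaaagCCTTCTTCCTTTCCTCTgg
Rps28: cgcgtgcggTCTCgcgagagcgaaa
Rpl39: gctccgCCTCTagcgacttcttcta
Rps4x: gctgggcggagcaacccaggctcca
Rpsa: ttatttaaggacgtcatttccggcc

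These stretches lie at chr2:39005117-39005141 on the minus strand for Rpl35, chr11:114668570-114668594 on the plus strand for Rpl38, chr4:86857353-86857377 on the minus strand for Rps6 and chr17:27635230-27635254 on the minus strand for Rps10. Those of Rpl15, Rps28 and Rpl39 lie on the minus strand at chr14:18270972-18270996, chr17:33824548-33824572 and chrX:37085208-37085232. That of Rps4x lies at chrX:102189377-102189401 on the minus strand, and that of Rpsa at chr9:120127756-120127780 on the plus strand. A C at the annotated start that opened a run of at least 5 C or T letters, read on the strand of the gene only, was found in 13 of the 64 members, or 20.3%, against 2.51% of 32851 starts in the table. When the start was allowed to move by up to 5 bases, 29 members (45.3%) held such a run, against 18.3% of all starts. Rpl35, Rpl38, Rps6, Rps10 and Rpl15 had the run at the start itself, while Rps28, Rps4x and Rpsa did not have it within 5 bases in this annotation.

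The authors deposited an RPKM value per gene and library, and the reads behind it were recovered from the size of its steps. In HFD1 to HFD3 the totals were 2726202, 4405541 and 834410 reads, and in LYC1 to LYC3 they were 394461, 311050 and 412116. The median tested member rested on 177 reads per HFD library and on 28 reads per LYC library, and between libraries of a group its coefficient of variation was 17.2% in HFD and 31.0% in LYC. Counting error alone would give a median of 8.74% and 19.1%. Values below are scaled RPKM, the deposited RPKM divided by the TMM factor (trimmed mean of M-values) of the library. Markers of hepatocytes summed to between 35101 and 38976 scaled RPKM in HFD and to between 26963 and 39927 in LYC. The 6 lymphocyte markers together summed to between 3.90 and 6.14 in HFD and to between 1.21 and 3.01 in LYC, and the 4 cholangiocyte markers to between 3.94 and 4.96 in HFD and to between 0.770 and 2.54 in LYC. Both sums were lower in every LYC library than in every HFD library, none of these markers had enough reads for the test, and their part in the results was not tested. At the depth of LYC, 1 read on a gene of 1 kb is worth 2.43 to 3.21 RPKM. Both LYC sums thus rest on very few reads, and no difference between groups is read from them. None of the tested genes among the marker lists for hepatocytes, macrophages, endothelial and stellate cells passed the test at adjusted p below 0.05 in the limma fit, and in the erythroid list Alas2 was higher in LYC. In bulk liver, fewer cells of a type and less RNA per cell cannot be told apart. Small non-coding RNA genes took 2.45% to 3.91% of listed reads in HFD and 8.36% to 12.9% in LYC.

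The ribosomal protein genes together took a similar share of the libraries of both groups. Of the reads on all listed genes they held 0.772%, 0.794% and 0.906% in HFD1 to HFD3, and 0.830%, 0.959% and 0.704% in LYC1 to LYC3. The groups overlapped, with the lowest and the highest share both in LYC. With the small non-coding RNA genes set aside, the shares were 0.804% to 0.929% in HFD and 0.804% to 1.05% in LYC, which also overlapped.

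Levels of the members, which are compared here per length in scaled RPKM, spanned a 49.8-fold range. The mean over the 6 libraries had a median of 117 over the 79 tested members, against 13.04 over all 5787 genes tested. Rpl10, which completes the large subunit before it joins the small one, stood highest at 430 ± 120 (SD over 6 libraries), ahead of Rpl41 at 324 ± 67.0, the shortest protein of the ribosome with 25 codons. Rps29, Rps2 and the stalk protein Rplp1 followed at 287 ± 41.9, 262 ± 76.6 and 245 ± 88.1. Neighbours in this order over 6 libraries differed by less than the larger of their SDs. Rpl10 stood highest in each group, but the order below it differed. In HFD Rps2 at 307 ± 80.5 was above Rps29 at 295 ± 26.9 (SD, n = 3). In LYC Rps4x at 376 ± 270 and Rpl38 at 311 ± 113 were above Rps29 at 280 ± 59.2 (SD, n = 3). The lowest tested members were Rps15a at 8.63 ± 3.60, the paralog Rpl7l1 at 13.9 ± 5.39, Rps20 at 18.3 ± 6.57, Rpl22 at 18.4 ± 5.45 and the Rpl32 copy Rpl32l at 35.7 ± 18.5, and here too each step was within the larger SD. The length behind the RPKM was 5134 bases for Rps15a and 3446 bases for Rps20, whose coding sequences have 393 and 360 bases, and these long gene models stand beside the low levels. The part of the lengths in the order of levels was not tested.

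Of the 85 members, 6 could not enter the test. The Rpl10, Rpl39 and Rpl3 paralogs Rpl10l, Rpl39l and Rpl3l, known from testis and muscle, were listed at 0 in every library of the Ribo-seq table. In the table labelled RNA-seq, each of whose columns matched 1 of these libraries best, Rpl10l had 5 and Rpl39l had 2 counts over the HFD columns, so a 0 here sets no upper limit. Rps4l, a copy of Rps4x, had 19, 38 and 8 reads in HFD1 to HFD3 and 2, 3 and 2 reads in LYC1 to LYC3. The zinc-finger protein genes Rps27 and Rpl37, which every ribosome uses, were near 0 in the Ribo-seq table. Rps27 had 1, 1 and 0 reads in HFD1 to HFD3 and 0 in each LYC library, and Rpl37 had 19, 8 and 4 reads in HFD1 to HFD3 and 0 in each LYC library. The 31 reads of Rpl37 in HFD are 3.89 RPM (reads scaled by the total reads of the group to the base used in RPKM).

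Most members were not distinguishable between LYC and HFD, and 7 passed the test. Rps4x, Rpl38, Rpl35, Rps28 and Rpl39 were among the 6 that were higher in LYC, and Rpsa was the 1 that was lower, at adjusted p below 0.05, by limma's moderated test on log2(scaled RPKM + 1), two-sided, with Benjamini-Hochberg adjustment over all genes tested. The 6 higher calls are 7.59% of the 79 tested members, against 6.45% of all genes tested, and the single lower call is 1.27% of them, against 5.10%. At a log2 fold change beyond 1 with an unadjusted p below 0.01, one of the limits named in the paper, which is not the same throughout its text, the counts were again 6 and 1, where 6.84% and 6.41% of all genes tested were past them. Fold changes on this scale understate the change of low genes. The count of 6 fell to 3, 2, 2 and 3 without HFD1, HFD2, HFD3 and LYC1, was 7 without LYC2, and rose to 15 without LYC3.

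**Figure D1:**
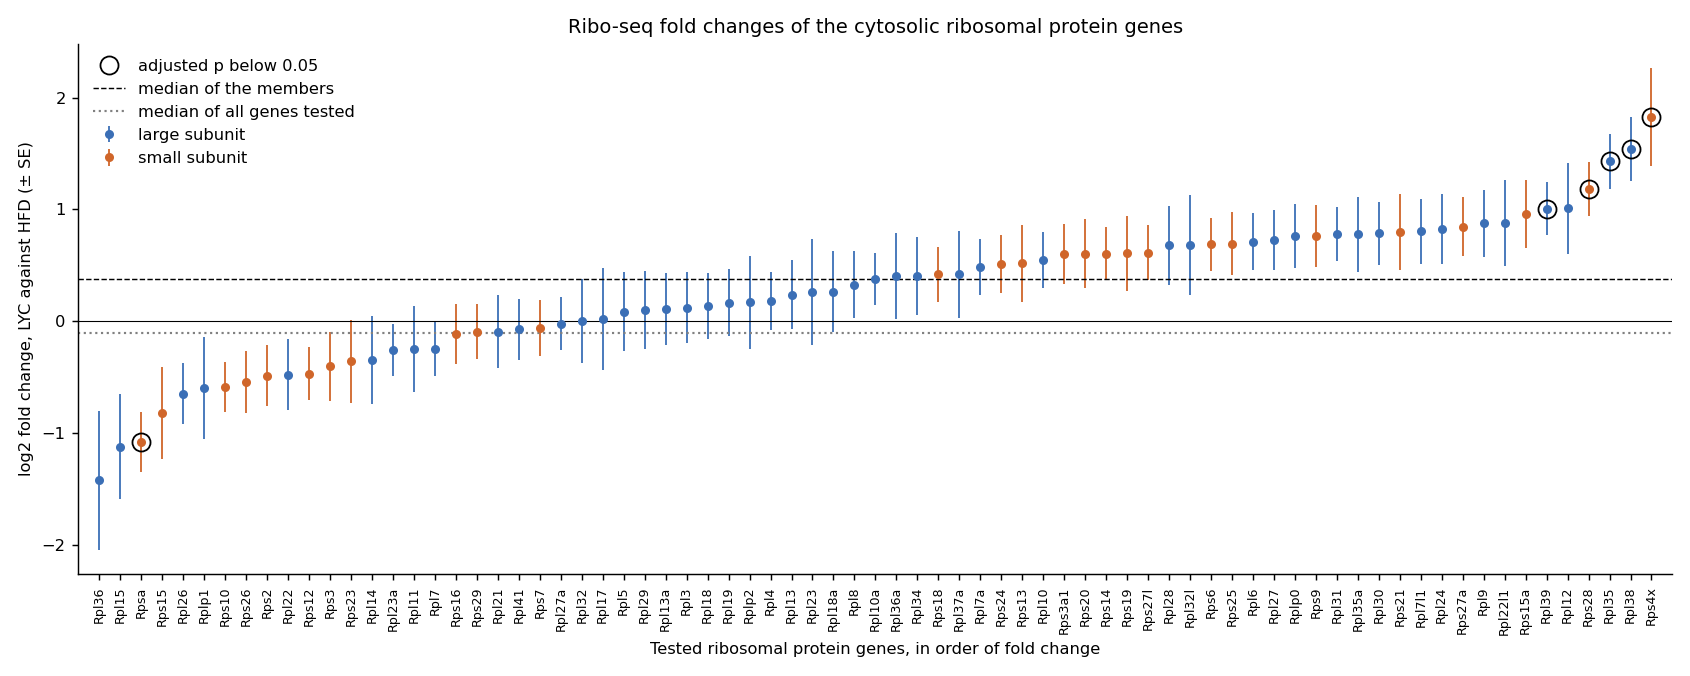
The log2 fold change of LYC against HFD (vertical axis, ± SE) of 75 of the 79 tested members in order of fold change, coloured by subunit, with circles on those that passed the test and lines at the medians of the members and of all genes tested. Rps4x is the highest of those drawn at 1.83, most members lie between -1 and 1, and the member median of 0.38 lies above the median of -0.11 over all genes.

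Rps4x, the X-linked copy of a small subunit protein that binds early in assembly, had 78.0, 83.7 and 112 scaled RPKM in HFD1 to HFD3 and 235, 687 and 206 in LYC1 to LYC3. All LYC libraries lay above all HFD libraries, and LYC2 stood apart from the other two. Its log2 fold change was 1.83 ± 0.44 (SE), with an adjusted p of 0.0321 in the limma fit. Without LYC2 the fold change was 1.28 and the call held, whereas it was lost without HFD1, HFD2, HFD3 or LYC1, where the adjusted p was 0.0565 to 0.101. The call was also lost with library totals in place of TMM factors and with no filter on low genes. The adjusted p was 0.0504 and 0.0721 in these limma fits. The gene lies at chrX:102184941-102189391 on the minus strand.

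Rpl38, a small protein of the large subunit whose loss in mice disturbs the translation of Hox mRNAs, had 119, 96.9 and 92.1 scaled RPKM in HFD1 to HFD3 and 441, 242 and 249 in LYC1 to LYC3. The groups did not overlap, and LYC1 was the highest library. The mean went from 103 ± 14.4 to 311 ± 113 (SD, n = 3 each), with a log2 fold change of 1.54 ± 0.29 (SE) and an adjusted p of 0.0142 in the limma fit. Without HFD2 or HFD3 the adjusted p was 0.0575 or 0.0776. The gene lies at chr11:114667818-114672333 on the plus strand.

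Rpl35 and Rpl39 sit at the polypeptide exit tunnel, Rpl35 at its outer rim and Rpl39 in its wall. Rpl35 had 76.4, 57.2 and 93.0 scaled RPKM in HFD1 to HFD3 and 190, 212 and 204 in LYC1 to LYC3, so that the LYC libraries lay close together and above every HFD library. Its log2 fold change was 1.43 ± 0.25 (SE), with an adjusted p of 0.00986 in the limma fit, and it was past the threshold with each library left out in turn. Rpl39 had 102, 85.3 and 69.9 in HFD1 to HFD3 and 154, 191 and 170 in LYC1 to LYC3, again without overlap. Its log2 fold change was 1.01 ± 0.24 (SE), with an adjusted p of 0.0303 in the limma fit, and of the fits that leave out a library only the one without LYC3 kept the call. With library totals in place of TMM factors the log2 fold change of Rpl39 was 0.72, with an adjusted p of 0.123 in the limma fit. The genes lie at chr2:39001581-39005131 and chrX:37082518-37085222, both on the minus strand.

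Rps28, a small protein of the head of the small subunit next to the mRNA exit, had 62.1, 57.8 and 77.4 scaled RPKM in HFD1 to HFD3 and 170, 122 and 161 in LYC1 to LYC3. No LYC library was as low as an HFD library. The log2 fold change was 1.19 ± 0.24 (SE), with an adjusted p of 0.0194 in the limma fit. The call was lost without HFD1, HFD2, HFD3 or LYC1, with an adjusted p of 0.0578 to 0.0896. The gene lies at chr17:33823036-33824562 on the minus strand.

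Rpsa, the small subunit protein that was first named as a laminin receptor, had 66.7, 62.8 and 102 scaled RPKM in HFD1 to HFD3 and 39.2, 32.6 and 33.9 in LYC1 to LYC3. Every LYC library was below every HFD library. The mean fell from 77.2 ± 21.8 to 35.3 ± 3.51 (SD, n = 3 each), with a log2 fold change of -1.08 ± 0.27 (SE) and an adjusted p of 0.0355 in the limma fit. The call held only without LYC3, and the adjusted p was 0.0619 to 0.143 without any of the other libraries. The gene lies at chr9:120127766-120132369 on the plus strand.

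**Figure D2:**
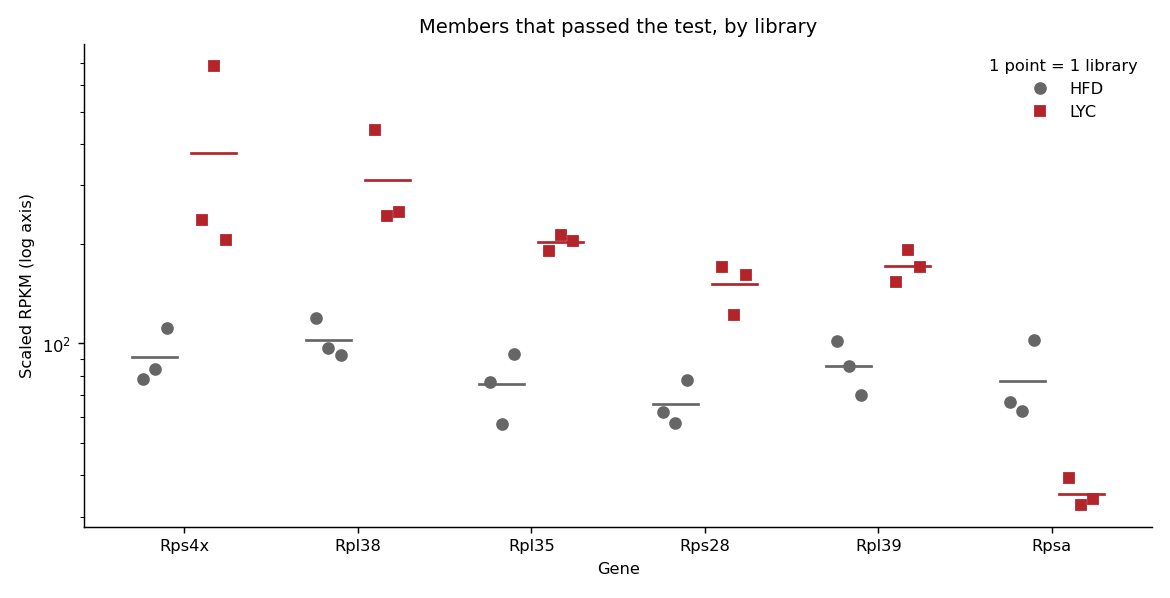
Scaled RPKM (log axis) of Rps4x, Rpl38, Rpl35, Rps28, Rpl39 and Rpsa, which passed the test, with 1 point per library (circles HFD, squares LYC) and lines at the group means. The groups do not overlap in any of the 6 genes drawn, Rps4x has 1 LYC library at 687, and Rpsa is the gene whose LYC libraries lie below HFD, at 32.6 to 39.2.

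Among members with a negative fold change, Rps10, Rpl15, Rpl26 and Rpl36 also had unadjusted p-values below 0.05, and none of them passed the test. Rps10, at the entry of the mRNA channel, had 172, 184 and 230 scaled RPKM in HFD1 to HFD3 and 137, 126 and 123 in LYC1 to LYC3. Rpl26, at the rim of the exit tunnel, had 181, 170 and 176 in HFD and 123, 147 and 77.5 in LYC. In Rps10 and Rpl26 each LYC library lay below each HFD library, with log2 fold changes of -0.59 and -0.65 and adjusted p-values of 0.121 and 0.158 in the limma fit. Rpl15 had 58.0, 51.1 and 67.2 in HFD and 56.9, 24.3 and 12.9 in LYC. Another large subunit gene, Rpl36, had 124, 102 and 267 in HFD and 78.0, 110 and 19.4 in LYC. Both genes overlapped between groups, and LYC3 was the lowest library of each.

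Across the 79 tested members, 55 had a fold change above 0 and 24 below 0, and the median log2 fold change was 0.38, with the middle part of the members between -0.09 and 0.74. Over all genes tested the median was -0.11. Every LYC library was above every HFD library in 27 members, or 34.2%, against 18.5% of all genes tested. The LYC libraries all lay below the HFD libraries in 5 members, or 6.33%, against 19.2% of all genes. An unadjusted p below 0.05 was reached by 26 members with a positive fold change, or 32.9%, against 14.7% of all genes tested, and by 6 with a negative one, or 7.59%, against 15.1%.

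The members were also compared with other genes of their length. The members are short, with a median length behind the RPKM of 725 bases against 3128 bases over all genes tested, and short genes had higher fold changes in these libraries. Between 500 and 1000 bases the 41 members had a median log2 fold change of 0.42, and the other 272 genes had 0.39. Between 1000 and 2000 bases the medians were 0.12 for 17 members and 0.07 for 1089 other genes. Up to 500 bases, a class that also holds the small non-coding RNA genes, 16 members had a median of 0.40 and 158 other genes had 1.53. The median of the members was thus close to that of the other genes in the classes from 500 to 2000 bases, which hold most members, and lower in the shortest class. Few members are longer. Between 2000 and 4000 bases 4 members had a median of 0.34 against -0.11 over 2102 other genes, and above 4000 bases Rps15a had 0.96 against -0.27 over 2087 other genes. Among the members themselves fold change and length were barely related, with a Spearman rho of -0.05 over 79 genes, against -0.24 over all 5787 genes, whose points share the same 6 libraries.

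When the trend with length was removed from each library by a loess fit, the member median became -0.01 and that over all genes was -0.03. The curve was fitted over all genes tested, so its short end also rests on the small non-coding RNA genes. Their part in the calls of this fit was not tested. In this fit 4 members passed the test as higher, or 5.06% of them, against 5.75% of all genes, and 8 as lower, or 10.1%, against 5.06% of all genes. The higher ones included Rps4x, Rpl38 and Rps15a. The lower ones included Rpsa, Rps10, Rps12, Rps15, Rps26, Rpl26 and Rpl36. Rpl35, Rps28 and Rpl39 kept positive values of 0.79, 0.48 and 0.35 there and did not pass. With library totals in place of TMM factors the member median was 0.09, and the median over all genes was -0.36.

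**Figure D3:**
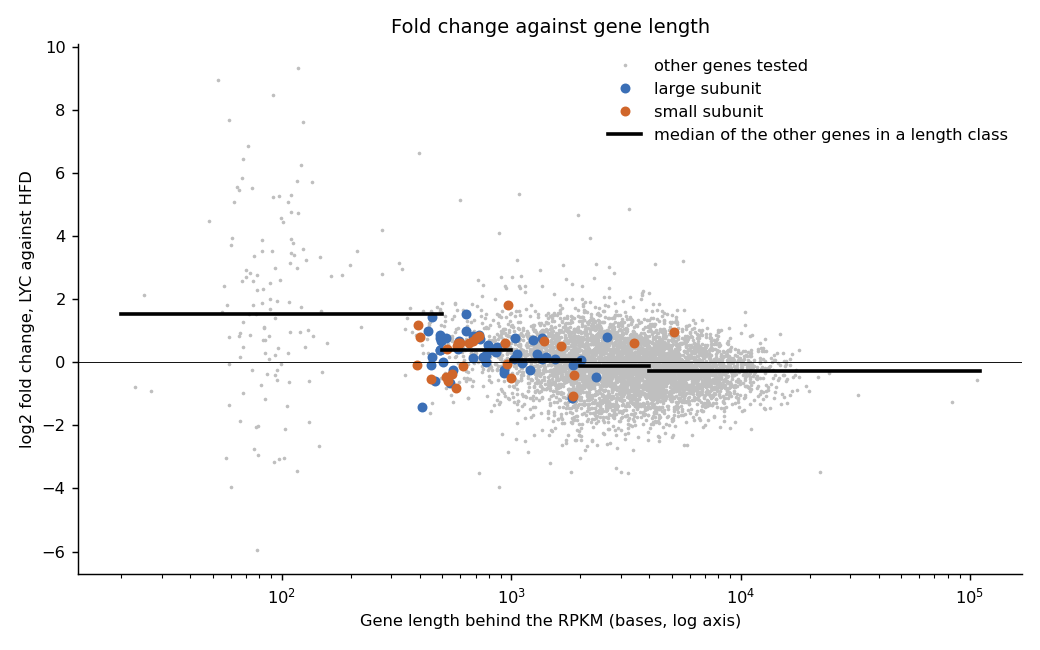
The log2 fold change of LYC against HFD (vertical axis) against the gene length behind the RPKM (bases, log axis), with grey points for other genes, coloured points for 75 of the 79 tested members by subunit, and bars at the median of the other genes in 5 length classes. The bars step down from 1.53 up to 500 bases to 0.39, 0.07, -0.11 and -0.27 in the longer classes, and most members lie around the bars at 0.39 and 0.07.

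The subunits were compared by the sums over their genes and by the fold changes of their members. The large subunit genes summed to 4843, 4334 and 5470 scaled RPKM in HFD1 to HFD3 and to 7328, 6233 and 5146 in LYC1 to LYC3. LYC1 and LYC2 were above all HFD libraries, and LYC3 was within the range of HFD. The small subunit genes summed to 3487, 3409 and 3943 in HFD and to 4706, 4897 and 4002 in LYC, with every LYC library above every HFD library on this scale. The ratio of the sums, large to small, averaged 1.35 ± 0.0674 over the 3 HFD libraries and 1.37 ± 0.161 over the 3 LYC libraries (SD), and its ranges overlapped.

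**Figure D4:**
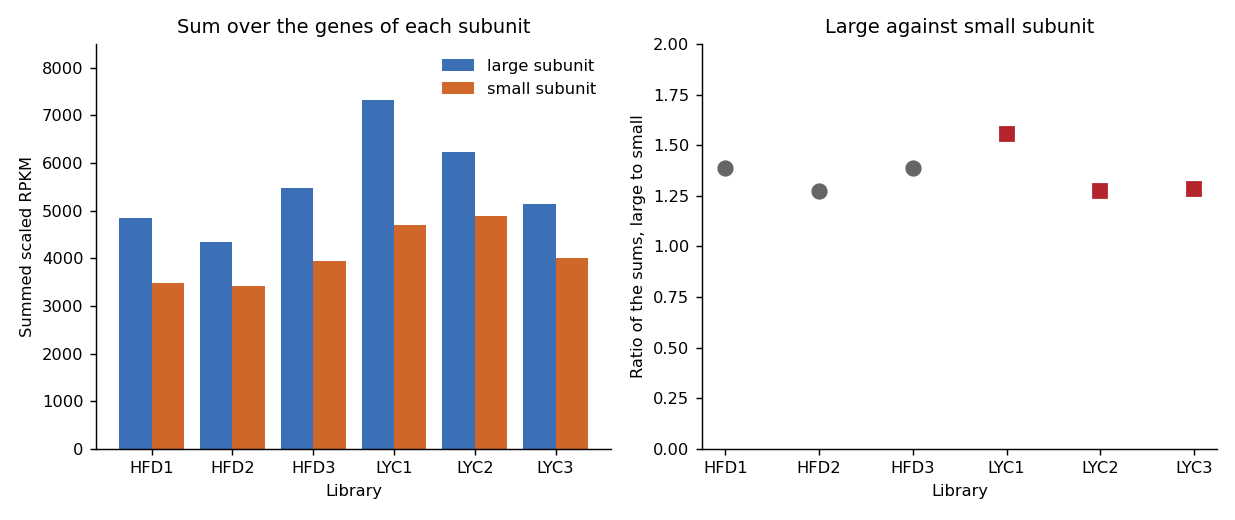
Left, scaled RPKM summed over the genes of each subunit in each library; right, the ratio of these sums, large to small, with circles for HFD and squares for LYC. The ratio lies between 1.27 and 1.39 in HFD and between 1.27 and 1.56 in LYC.

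The median log2 fold change was 0.26 over the 48 tested members of the large subunit and 0.52 over the 31 of the small subunit. These medians differed by -0.25, large minus small, and by -0.37 to -0.09 in the other fits, where the same difference varied between libraries of a group with an SD of 0.16. In 15 of the 31 small subunit members every LYC library was above every HFD library and in 4 every one was below, so that 12 overlapped. In the large subunit 12 of 48 were above, 1 was below and 35 overlapped. These are 48.4% above and 12.9% below in the small subunit and 25% and 2.08% in the large subunit, against 18.5% and 19.2% of all genes tested. Of the calls, 3 higher ones belonged to each subunit and the lower one to the small subunit. No large subunit member passed as lower in the limma fit with TMM factors and all libraries, where 3 of 48 had an unadjusted p below 0.05 with a negative fold change, nor with edgeR or DESeq2. Rpl26 and Rpl36 passed as lower without the length trend, Rpl15 without LYC1, and Rpl37 without the filter on low genes.

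The P stalk recruits the elongation factors to the ribosome, and Rpl12 sits at its base. Rplp0, its anchor, had 69.5, 67.4 and 118 scaled RPKM in HFD1 to HFD3 and 131, 174 and 120 in LYC1 to LYC3, without overlap. Rplp1 had 304, 255 and 272 in HFD and 224, 81.9 and 332 in LYC, and Rplp2 had 134, 99.3 and 188 in HFD and 231, 190 and 81.1 in LYC. These partners thus overlapped between groups, and the lowest library was LYC2 in Rplp1 but LYC3 in Rplp2. Rpl12 had 40.3, 39.7 and 82.3 in HFD and 119, 150 and 61.9 in LYC, also with overlap. None of the 4 passed with limma, edgeR or DESeq2 over all libraries, and 2 had an unadjusted limma p below 0.05, as 29.8% of all genes tested did, while Rpl12 passed as higher in the limma fit without LYC3.

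Rpl5 and Rpl11, which with the 5S RNA form the particle that binds Mdm2 when assembly fails, overlapped between the groups. Rpl5 had 53.3, 51.1 and 54.4 scaled RPKM in HFD1 to HFD3 and 95.9, 52.2 and 35.2 in LYC1 to LYC3, with a log2 fold change of 0.08 ± 0.35 (SE). Rpl11 had 73.4, 59.99 and 78.2 in HFD and 105, 34.3 and 56.5 in LYC, with a log2 fold change of -0.25 ± 0.38 (SE). In both genes LYC1 was the highest of the 6 libraries and the LYC libraries spread to either side of HFD.

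Of the 9 proteins at the exit tunnel and its rim, 6 had a positive and 3 a negative fold change, with a median of 0.17, and Rpl35 and Rpl39 were the 2 that passed, or 22.2%, against 6.45% of all genes called higher. Without the length trend the median was -0.25, neither passed, and Rpl26 passed as lower, 11.1% against 5.06% of all genes. Rpl31, at the rim, had 43.4, 48.2 and 40.5 scaled RPKM in HFD1 to HFD3 and 94.7, 67.6 and 68.4 in LYC1 to LYC3, without overlap and with an adjusted p of 0.0735 in the limma fit. Its neighbours Rpl19, Rpl23a and Rpl4 overlapped between groups. The 14 proteins of the head of the small subunit were split, with 7 on each side of 0 and a median of 0.09, which was -0.31 without the length trend. There Rps28 was the single call, 7.14% against 6.45% of all genes called higher. In the fit without the length trend 4 passed as lower, Rps10, Rps12 and Rps15 among them. These are 28.6%, against 5.06% of all genes. The limit of the length curve given above applies to these calls and to that of Rpl26.

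Mutations in many of these genes cause Diamond-Blackfan anaemia, a failure of red cell production. Of 19 such genes, 18 could be tested, 10 with a positive and 8 with a negative fold change and a median of 0.11. Rpl35 and Rps28 were the calls, 11.1% against 6.45% of all genes called higher. Without the length trend neither passed, and the median was -0.13. There 1 gene was called higher, 5.56% against 5.75% of all genes. The 4 called lower, Rpl26, Rps10 and Rps26 among them, are 22.2%, against 5.06% of all genes, and the limit of the length curve applies to them too. Rps19, the gene most often mutated, had 48.9, 41.1 and 53.4 scaled RPKM in HFD1 to HFD3 and 116, 48.7 and 68.2 in LYC1 to LYC3. Its groups overlapped, and its adjusted p was 0.256 in the limma fit.

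Of the 7 paralogs, 3 were expressed well enough for the test. Rps27l, a target of p53, had 140, 142 and 110 scaled RPKM in HFD1 to HFD3 and 179, 251 and 175 in LYC1 to LYC3. Rpl22l1, which can take the place of Rpl22, had 28.8, 15.1 and 35.8 in HFD and 32.5, 65.3 and 48.4 in LYC, and Rpl7l1 had 9.20, 9.79 and 10.3 in HFD and 15.8, 23.3 and 15.1 in LYC. Rps27l and Rpl7l1 showed no overlap between groups, and Rpl22l1 did. Their log2 fold changes were 0.61, 0.88 and 0.80, with adjusted p-values of 0.139, 0.166 and 0.110 in the limma fit, and none passed with edgeR or DESeq2 either.

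Rps6, the substrate of the S6 kinases downstream of mTOR, had 121, 138 and 132 scaled RPKM in HFD1 to HFD3 and 255, 218 and 168 in LYC1 to LYC3. Every LYC library was above every HFD library, with a log2 fold change of 0.69 ± 0.24 (SE) and an adjusted p of 0.0945 in the limma fit. Rpl10 had 348, 320 and 369 in HFD and 587, 579 and 377 in LYC, also without overlap, with an adjusted p of 0.186. Rpl13a, which can leave the ribosome to silence inflammatory mRNAs, had 97.6, 80.9 and 126 in HFD and 115, 153 and 71.8 in LYC, and its groups overlapped. So did those of Rpl41, with 291, 299 and 400 in HFD and 233, 405 and 316 in LYC.

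Among tested members, the 12 with the TOP run at the annotated start had a median log2 fold change of 0.68, and the 47 listed without it had 0.40. Their median lengths were 562.5 and 734 bases, and with the length trend removed the medians were 0.09 and 0.01. In the first set Rpl35 and Rpl38 were called higher, and Rps10 and Rpl15 had unadjusted limma p-values below 0.05 with negative fold changes, so that genes with the run lay at both ends of the order. No test of this difference was made.

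Other genes tied to the ribosome were taken from 4 lists. Among 35 ribosome assembly genes, 19 could be tested, of which 17 had a positive fold change, with a median of 0.43, and 5 were called higher, Nop10, Wdr12, Rrp12, Sbds and Gtpbp4, where 6.45% of all genes were. Without the length trend Nop10 and Sbds had adjusted p-values of 0.0642 and 0.0764 in the limma fit, and Ncl, which was not called before, passed as higher. Wdr12, a factor of large subunit assembly, went from 2.90 ± 0.826 to 10.3 ± 3.30 scaled RPKM (SD, n = 3 each), and Sbds, which helps to release Eif6 from the large subunit, from 11.0 ± 3.05 to 24.96 ± 4.07. Of 20 other TOP mRNAs, all tested, 16 had a positive fold change with a median of 0.38. Btf3 was the 1 of 20 called higher, against 6.45% of all genes. Of 12 tested genes of mTOR signalling and TOP control, 8 had a negative fold change with a median of -0.18. Larp1, which binds the TOP motif, was the 1 of 12 called lower, against 5.10% of all genes. It went from 22.2 ± 1.85 in HFD to 10.3 ± 1.10 in LYC. Its call was lost without the length trend, with an adjusted p of 0.0966 in the limma fit, and the genes called lower there were Fau and Eif4ebp2. Of the 5 ribosomal protein genes that the symbol rule leaves out, Rpl36al was the 1 called higher, against 6.45% of all genes. Btf3 and Rpl36al did not pass without the length trend either, with adjusted p-values of 0.0667 and 0.103 in the limma fit. The 7 higher calls among the 56 tested genes of these lists fell to 4 without the length trend and to between 0 and 3 when 1 library other than LYC3 was left out, and were 9 without LYC3. No gene of these lists was called lower when 1 library other than LYC3 was left out, and 3 were without LYC3.

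The reads of most members have other possible origins in the genome. Coding sequences of 84 members were cut into windows of 28 bases, the length of a ribosome footprint, and looked up on both strands of GRCm38. The median member had 3.42% of its windows without another copy, and 33 members had none. The annotation names 317 pseudogenes for 64 of the members. Only 6 of the tested members, Rpl8, Rps3, Rps27l, Rpl4 and Rpl22 among them, had more than 50% of their windows without another copy. Rpl8, which lies near the peptidyl transferase centre, and Rps3, at the mRNA entry, had 87.4% and 75.9% of such windows and log2 fold changes of 0.33 ± 0.30 and -0.40 ± 0.31 (SE), of which that of Rpl8 was -0.03 without the length trend. Over the 6 genes the median was 0.22, or -0.09 without the length trend, and none passed with limma, edgeR or DESeq2. An unadjusted limma p below 0.05 was reached by 1 of them, as by 29.8% of all genes tested. All 7 calls fell among the other 73 members, where at most 2.88% of windows of a called gene had no other copy. Of the 73, 8.22% were called higher and 1.37% lower, against 6.45% and 5.10% of all genes. Among as few as 6 genes, the lack of a call cannot be told apart from these shares. How the authors' counting treated reads with several origins is not given in the sources used here, and the part of such reads in the calls was not tested.

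Of the 85 members, 30 carry snoRNA genes in their introns, 58 in all. The 29 of these hosts that were tested had a median log2 fold change of 0.18 and the 50 other members had 0.42. The median lengths were 864 and 667.5 bases, and without the length trend both medians were -0.01. Of the 58 snoRNA genes, 33 are listed apart in the table, and 17 had enough reads for the test. Of the 17, 12 were called higher and 1 lower, against 6.45% and 5.10% of all genes tested, with a median of 2.78. A gene could enter the test by its reads in 1 group alone. Snord72 in Rpl37, with 14, 10 and 2 reads in HFD1 to HFD3 and 18, 7 and 15 in LYC1 to LYC3, was tested. Snord35a in Rpl13a, with 69, 95 and 13 in HFD and 2, 0 and 2 in LYC, was not. The counts and the median may thus lean upward, and no conclusion is drawn from them. The snoRNA genes are among the shortest genes of the table, and the 158 genes up to 500 bases that are no members had a median of 1.53. That set includes the tested snoRNA genes themselves, so it is no separate reference for them. Inside Rpl39, the counts of Snora69 were 147, 436 and 44 in HFD1 to HFD3 and 2067, 763 and 2283 in LYC1 to LYC3. In Rpl3, whose own log2 fold change was 0.12 and fell below 0 in 4 of the other fits, Snord43 had a log2 fold change of 4.47, which was 2.66 without the length trend. Snord43 was called in both of these limma fits and had an adjusted p of 0.0654 in the one without a filter on low genes. All 58 lie between exons of the host transcript examined, and their part in the host's reads was not tested.

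The table labelled RNA-seq did not give an independent measure of the mRNA of these genes. Its counts were set beside the reads recovered from the Ribo-seq table for genes with at least 10 reads in either. In each LYC library 67.2% to 68.1% of these genes had the identical number in 1 column of the other table, against at most 2.59% in any other column. In HFD the best column matched in 13.7% to 31.1%, and no other in more than 0.926%. Among the tested members, 39 of 79 (49.4%) had identical numbers in all 3 LYC libraries. A ratio of footprints to mRNA was therefore not formed.

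In that table edgeR's quasi-likelihood test on the counts called 10 members higher, 12.7% of 79, against 10.9% of all 5921 genes tested, and 1 lower, 1.27%, against 7.84%. All 7 members called in the Ribo-seq table were called in the same direction, and 4 were added, Rpl9, Rps9 and Rps15a among them. As the libraries are shared, this shows how the calls depend on counting and test, not that they recur. The higher count was 4, 6 and 4 without the HFD columns that match HFD2, HFD3 and HFD1, and 5, 10 and 21 without those that match LYC1, LYC2 and LYC3. The HFD columns numbered 1, 2 and 3 thus matched HFD2, HFD3 and HFD1 best, not the libraries of their own number.

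Some members were counted differently in both tables. Rpl38 and Rps6 changed by a like factor in both groups, with ratios of the second to the first counting of 0.520 in HFD and 0.5 in LYC for Rpl38 and of 0.532 in HFD and 0.530 in LYC for Rps6.

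Rps27 and Rpl37 had counts in the second table that the first lacked. Rps27 had 63, 102 and 19 counts in the columns matching HFD1 to HFD3 and 0, 6 and 13 in those matching LYC1 to LYC3. Rpl37 had 62, 106 and 16 in HFD and 5, 4 and 5 in LYC. Their log2 fold changes there were -0.10 ± 0.57 and -0.47 ± 0.45 (SE), with adjusted p-values of 0.924 and 0.502 by edgeR. Both genes thus had more counts in the second table in every library, except Rps27 in LYC1, which was at 0 in both tables. As RPM of the column total, Rps27 was at 21.2 to 23.6 in HFD. In LYC1 to LYC3 it was at 0, 10.3 and 18.9. Rpl37 was at 19.9 to 22.4 RPM in HFD and at 6.87 to 7.42 RPM in LYC.

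**Figure D5:**
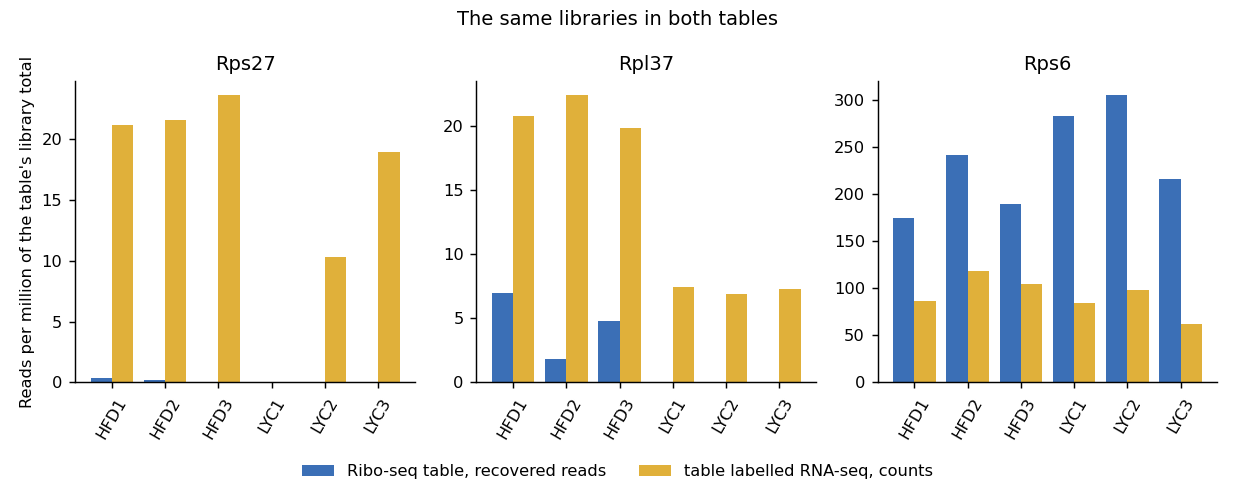
Reads in each library, as RPM of its total (vertical axis), of Rps27, Rpl37 and Rps6, as recovered from the Ribo-seq table (blue) and as counted in the matching column of the table labelled RNA-seq (yellow). Rps27 is near 0 in the first table and at 21.2 to 23.6 RPM in HFD in the second.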

How the data were processed

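Livers were profiled by Ribo-seq and by libraries labelled RNA-seq, 3 per group each. The authors cleaned reads (cutadapt, Bowtie2), mapped the rest with STAR against mm10, used FANSE2 for quantification, and deposited RPKM values for Ribo-seq, and read counts and RPKM values for the other libraries. Versions, the annotation and the treatment of reads with several origins are not given in the sources used here, and the series text names RefSeq RNA as the reference.

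RPKM steps gave whole reads with the gene lengths of the count table for 72.0% to 75.8% of the values above 0 per library (tolerance 0.02 of a read plus a small share of its value), and a fitted length was used for the others. Ribo-seq was tested with limma on log2(RPKM / TMM factor + 1) after filterByExpr, with Benjamini-Hochberg adjustment over 5787 genes. edgeR's quasi-likelihood test on recovered reads, an alternative, called 544 genes higher and 408 lower. The count table was fitted with edgeR. Library totals, and thereby the counting error of each value, stand in the text, and intervals from reads cover counting error only. Fits and read recovery were tested on simulated data. Libraries that share a replicate number carry different mouse numbers in their titles. The members and lists were chosen with earlier results of these data known. Genes were named from role lists (P stalk, 5S RNP, exit tunnel, head, Diamond-Blackfan anaemia, paralogs), the 5 highest and 5 lowest levels, the 6 smallest p-values in each direction, snoRNA hosts as a group, and Rps6, Rpl10, Rpl13a, Rps4x, Rpl41 and Rpsa, and some of the genes so covered are not reported here, though they stay in the counts, sums and medians. Sequences and coordinates come from RefSeq and GRCm38.p6. No protein sequence was used. Alternatives were other scalings, pseudocounts of 0.1 and 5, no filter, a replicate block, removal of the length trend, edgeR, DESeq2 and leaving out each library. Fits used limma 3.58.1, edgeR 4.0.16 and DESeq2 1.42.0 under R 4.3.3, and tables and figures pandas 2.3.3, numpy 2.4.6, scipy 1.17.1 and matplotlib 3.10.9 under Python 3.11.15.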

Additional observations from a re-analysis of the deposited data

How the results depend on the processing

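In the Ribo-seq fit the 6 members called higher became 4 with library totals or without the length trend, 5 with no filter, 8 with edgeR and 14 with DESeq2, and ranged from 2 to 15 when each library was left out, with 15 without LYC3 and 2 without HFD2 or HFD3. The 1 member called lower became 2 with library totals and 8 without the length trend, and ranged from 0 to 1 without single libraries, being Rpl15 in place of Rpsa without LYC1. With the replicate block the counts were 6 higher and 0 lower. Same-numbered libraries carry different mouse numbers in their titles, and their deviations correlated at 0.108, 0.030 and 0.0086, so the numbers pair nothing and replicate 1 and replicate 3 but not replicate 2 correlated best with their own number. The member median of 0.38 moved to 0.094 with library totals and to -0.010 without the length trend. Of 34 genes whose Ribo-seq fold changes were followed through the alternatives, 30 kept their sign in each fit that tested them, and 4 members that were never called did not. With library totals Rpl5 became -0.20 and Rpl3 -0.16, and without the length trend Rpl8 became -0.031 and Rpl3 -0.05. Without single libraries Rpl5 ranged from -0.29 (without LYC1) to 0.40, Rpl11 from -0.65 to 0.13 (without LYC2), and Rpl3 from -0.051 (without LYC2) to 0.39, with -0.0075 without HFD2. Without a filter, Rpl37 became the single lower call and Rpsa had an adjusted p of 0.0507. The difference between subunit medians stayed negative in each fit.

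In the table labelled RNA-seq the 10 higher and 1 lower members became 2 and 35 with library totals, where the median over all genes was -1.11 and that of the members -0.74. Without a filter 2 were lower, and without single columns 4 to 21 were higher and 0 to 1 lower. With its column numbers as a replicate block 6 were higher and 2 lower, although the HFD columns best match libraries of another number. Of the other genes tied to the ribosome, the 7 higher calls became 1 with library totals, 4 without the length trend and 0 to 9 without single libraries, and the 1 lower call became 3, 2 and 0 to 3, the 2 without the length trend being Fau and Eif4ebp2 in place of Larp1. The causes were not tested. In LYC 1 read on a gene of 1 kb is worth 2.43 to 3.21 RPKM, so differences that rest on a few LYC reads were not detectable at this depth.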

Other observations

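Rows named as copies or pseudogenes of members, which the symbol rule leaves out, differed between the tables as well. Rpl14-ps1 had 0 reads in the Ribo-seq table and 274 counts over the 6 columns of the other, and Rplp2-ps1 had 0 and 109. In the opposite direction Rps27rt, a copy of Rps27, had 286 reads in the Ribo-seq table and 86 counts in the other, and Rpl37rt, a copy of Rpl37, had 461 and 307. In the Ribo-seq table Rpl37rt had 118, 259 and 43 reads in HFD1 to HFD3 and 11, 12 and 18 in LYC1 to LYC3, with a log2 fold change of -0.20 ± 0.23 (SE) and an adjusted p of 0.59 in the limma fit.

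All 4 members on the X chromosome, Rpl10, Rpl36a, Rpl39 and Rps4x, had positive fold changes, with a median of 0.78, and 2 of them were called higher, against 6.45% of all genes. Without the length trend the median was 0.25 and 1 was called. This set was put together after their values were seen and was not tested.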
